A study of Komagataella phaffii with 6 samples.

Results

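The genes described here encode 7 enzymes of the xylulose monophosphate cycle, the route by which the methylotrophic yeast Komagataella phaffii builds formaldehyde from methanol into sugar phosphates. They were chosen by locus tag, 7 of the 5040 genes counted, and all 7 passed the filter on low counts that left 3330 genes for testing. The names come from the K. phaffii literature: the sources used here pair no locus tag with a name, and the names were not checked against sequence.

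Wild-type cells of strain X-33 were kept for 18 h on methanol without a nitrogen source (3 libraries) or for 18 h on methanol with ammonium sulfate (3 libraries). All cells had first grown for 40 h on glycerol. The libraries sample transcripts by a single read close to the poly(A) tail and held 127303 to 395803 counts without nitrogen and 302395 to 435003 with nitrogen. Replicate 3 without nitrogen was the shallowest, with a median of 13 counts per tested gene, against 29 to 45 in the other libraries. The labels do not say whether replicates were separate cultures, so p-values measure only the spread between these samples, which may be technical.

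In this cycle, dihydroxyacetone synthase in the peroxisome joins formaldehyde with a fragment of xylulose phosphate and releases dihydroxyacetone and glyceraldehyde phosphate. Dihydroxyacetone kinase phosphorylates the dihydroxyacetone, and aldolase, sedoheptulose bisphosphatase, transaldolase and the pentose phosphate isomerases then rearrange the sugar phosphates so that xylulose phosphate is rebuilt. In K. phaffii, several rearrangement steps have a second gene copy known for its induction by methanol, and names ending in -2 mark these copies.

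Without nitrogen, 2 of the 7 cycle genes fell and none rose, while 5 missed the threshold. Both that fell encode rearrangement enzymes, RKI1-2, a ribose phosphate isomerase, which fell by 51.6%, and SHB17, the sedoheptulose bisphosphatase, which fell by 23.7%. The 3 genes of dihydroxyacetone formation and phosphorylation did not pass, with changes of -19.2% for DAS1, -4.56% for DAS2 and -17.6% for DAK2. Lying on different sides of the threshold does not show that these genes differ from SHB17, which was not tested gene by gene. Calls are edgeR's quasi-likelihood test, two-sided, at an adjusted p under 0.05 (Benjamini-Hochberg over all 3330 genes). Under this rule 6.34% of all tested genes were called and 2.67% were called lower. DESeq2 called the same 2 cycle genes, at a background of 5.04% of the 2361 genes to which it gave an adjusted p.

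All 7 cycle genes had a log2 fold change (without nitrogen over with nitrogen) below 0, as did 50.1% of all tested genes. The median over the 7 was -0.31, and the median over all tested genes was -9.27e-05. For 3 of the 7 (DAK2, SHB17 and RKI1-2) all libraries without nitrogen were under all those with nitrogen, which held for 9.91% of all tested genes. Levels are given in CPM, for which each count is divided by its library's size after TMM scaling, so they are relative to the other transcripts and do not show the amount of RNA per cell. Fold changes carry standard errors (SE) that rest almost wholly on the spread pooled over all genes, with 985 prior degrees of freedom.

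**Figure D1:**
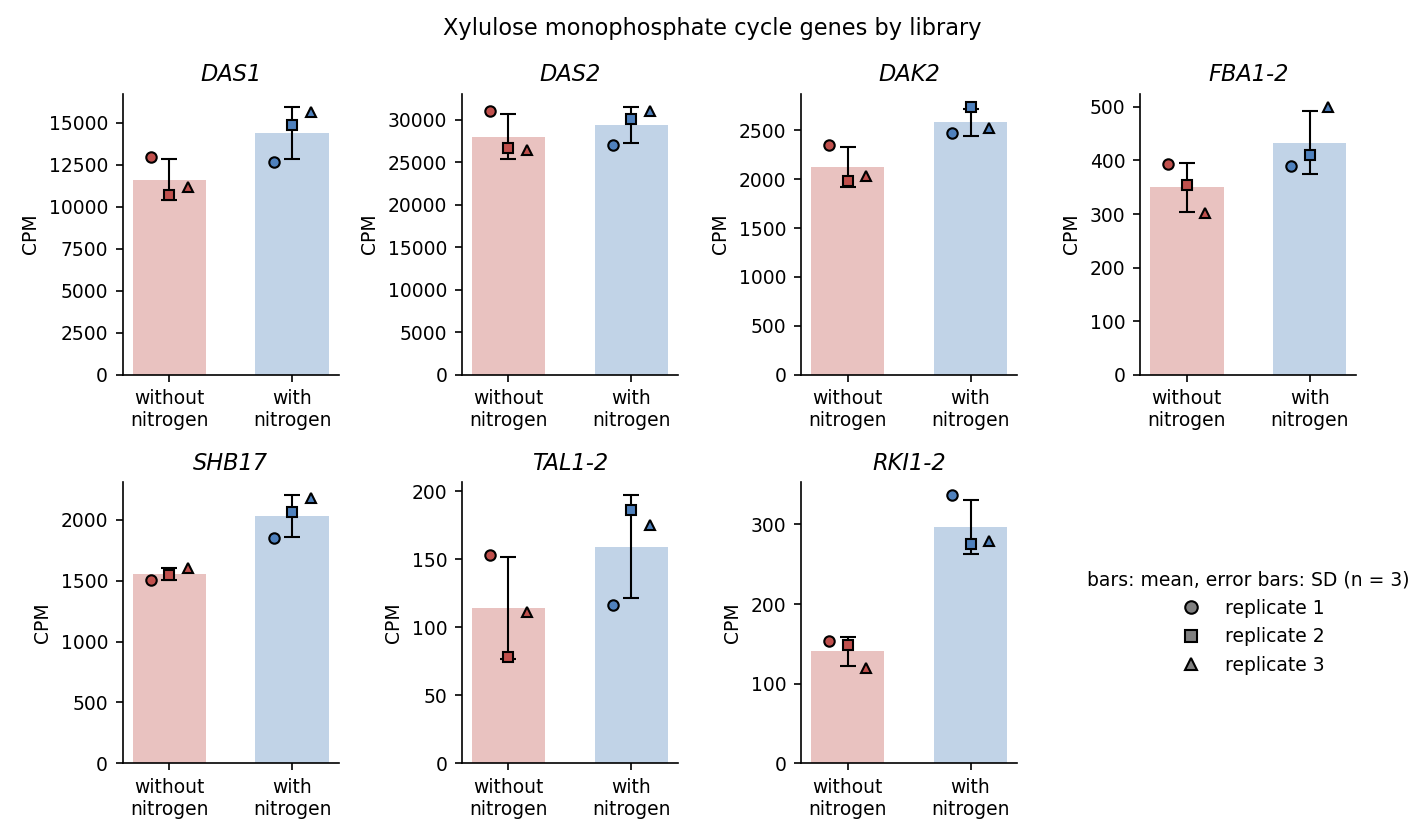
Level of each cycle gene in every library, in CPM on a linear axis from 0, without nitrogen on the left and with nitrogen on the right of each panel. Bars are means, error bars SD (n = 3) and symbols single libraries; the RKI1-2 libraries without nitrogen lie at 119 to 153 CPM, all under the lowest library with nitrogen at 276.

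RKI1-2 (PAS_chr4_0212, chromosome 4, 428135 to 428873, plus strand, 2 coding exons, 654 bp coding; coordinates here and below are of assembly ASM2700v1) interconverts ribose phosphate and ribulose phosphate. Its levels were 153, 149 and 119 CPM in replicates 1, 2 and 3 without nitrogen, against 337, 276 and 279 CPM in replicates 1, 2 and 3 with nitrogen. The groups were well apart, and the shallow library was the lowest of its group. The mean was 141 ± 18.5 CPM without nitrogen and 297 ± 34.2 CPM with nitrogen (SD, n = 3 each). The log2 fold change was -1.05 ± 0.21 (SE), with a 95% interval from -1.45 to -0.64 (edgeR adjusted p = 3.27e-05). Only 0.841% of all tested genes had a lower log2 fold change.

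RKI1-2 was counted 44, 59 and 15 times without nitrogen and 148, 80 and 86 times with nitrogen. As a share of the unscaled library total, its exact 95% Clopper-Pearson intervals reached at most 195 CPM without nitrogen, and began at no less than 210 CPM with nitrogen. These intervals cover counting error only. The call held under all 17 alternatives, with a log2 fold change from -1.11 to -0.94 and an adjusted p from 2.28e-05 with edgeR's robust setting to 0.0101 with all libraries thinned to the lowest total.

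SHB17 (PAS_chr2-2_0177, chromosome 2, 2053578 to 2054306, plus strand, 1 exon, 729 bp) encodes the bisphosphatase that, as known from Saccharomyces cerevisiae, removes a phosphate from sedoheptulose bisphosphate and so drives carbon toward pentose phosphates. Its levels were 1508, 1544 and 1607 CPM without nitrogen, against 1849, 2067 and 2182 CPM with nitrogen. The groups did not overlap. The coefficient of variation was 3.23% without nitrogen and 8.33% with nitrogen. The lower value does not show tighter replicates, since counting error is wider. In replicate 3 without nitrogen, the exact 95% interval of the share of the unscaled total ran from 1376 to 1821 CPM. The mean was 1553 ± 50.2 CPM without nitrogen and 2033 ± 169 CPM with nitrogen (SD, n = 3 each). This is a difference of -0.39 ± 0.12 (SE) in log2, with a 95% interval from -0.63 to -0.15 (edgeR adjusted p = 0.0348).

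The SHB17 call lay near the threshold. It was lost in 7 of 17 alternatives, among them without any 1 of 5 libraries and with thinned libraries (edgeR adjusted p = 0.157). The libraries whose removal ended it were replicates 2 and 3 with nitrogen and each of the replicates without nitrogen, where edgeR's adjusted p ran from 0.0577 to 0.171. The log2 fold change kept its direction, from -0.46 to -0.33 over the 17.

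TAL1-2 (PAS_chr2-2_0338, chromosome 2, 1750248 to 1751306, plus strand, 1 exon, 1059 bp), a transaldolase, which passes a dihydroxyacetone unit between sugar phosphates, was the rarest of the cycle genes by count. Its levels were 153, 78.3 and 111 CPM without nitrogen, against 116, 186 and 175 CPM with nitrogen. The groups overlapped, since replicate 1 without nitrogen lay above replicate 1 with nitrogen. The mean was 114 ± 37.5 CPM without nitrogen and 159 ± 37.7 CPM with nitrogen (SD, n = 3 each). In log2 the difference was -0.48 ± 0.25 (SE), at an edgeR adjusted p = 0.330.

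The 95% interval of the TAL1-2 fold change ran from -0.97 to 0.02, so these 14 to 54 counts per library leave a change of the size seen for SHB17 undecided. It was not called in any of 17 alternatives. Its log2 fold change moved to -0.82 when replicate 1 without nitrogen was left out, and to -0.18 when replicate 2 without nitrogen was left out.

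FBA1-2 (PAS_chr1-1_0319, chromosome 1, 1163600 to 1164705, plus strand, 2 coding exons, 1062 bp) encodes the second fructose bisphosphate aldolase, which condenses dihydroxyacetone phosphate with an aldose phosphate. Its levels were 393, 354 and 302 CPM without nitrogen, against 389, 410 and 500 CPM with nitrogen, and the groups overlapped at 1 library each. The mean was 350 ± 45.7 CPM without nitrogen and 433 ± 59.1 CPM with nitrogen (SD, n = 3 each). In log2 the difference was -0.28 ± 0.16 (SE), with a 95% interval from -0.60 to 0.05 (edgeR adjusted p = 0.432). It was not called in any of 17 alternatives, and leaving out replicate 3 with nitrogen moved its log2 fold change to -0.17.

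**Figure D2:**
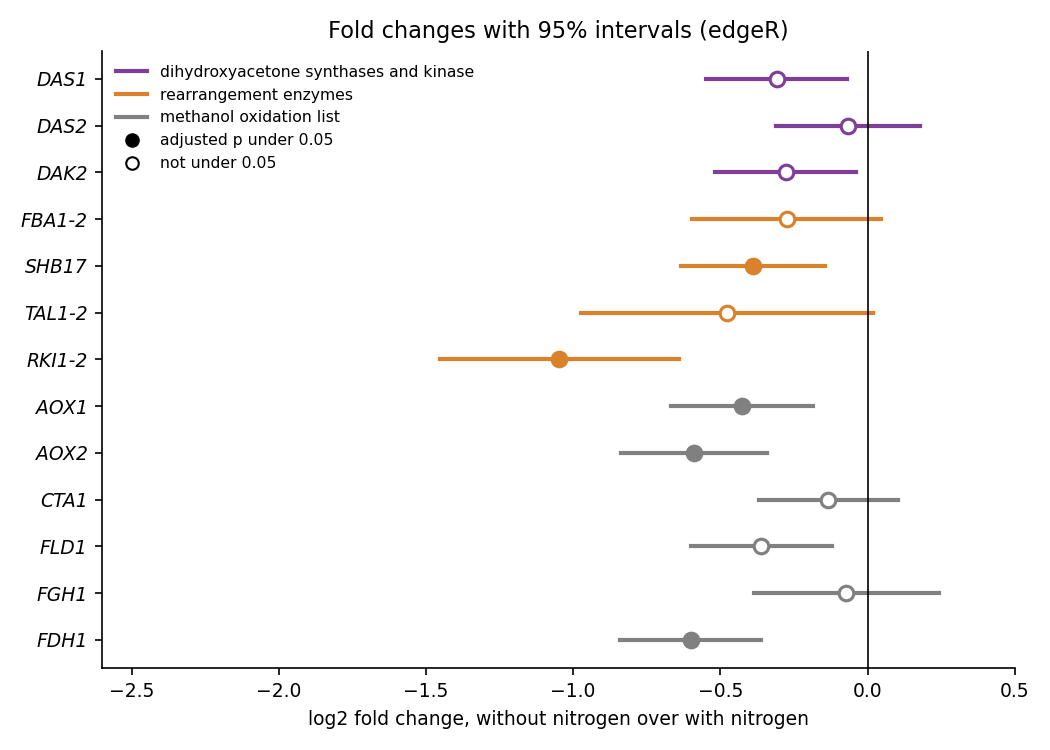
Log2 fold change (x axis, without nitrogen over with nitrogen) of the 7 cycle genes and 6 methanol oxidation genes, with 95% intervals from edgeR; filled points have an adjusted p under 0.05. The point for RKI1-2, at -1.05, lies farthest to the left.

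DAS1 and DAS2 encode the dihydroxyacetone synthases, and ranked 4 and 1 of all genes in the table by total count. DAS1 (PAS_chr3_0832, chromosome 3, 1608584 to 1610707, minus strand, 1 exon, 2124 bp) stood at 12957, 10662 and 11177 CPM without nitrogen, against 12625, 14855 and 15632 CPM with nitrogen. Replicate 1 without nitrogen lay above replicate 1 with nitrogen, and the other libraries were apart. Its 95% interval ran from -0.55 to -0.07 on the log2 scale (edgeR adjusted p = 0.127), and it passed when counts were scaled by library totals (edgeR adjusted p = 0.0413), in limma-voom (adjusted p = 0.0167) and without replicate 1 with nitrogen (edgeR adjusted p = 0.0472).

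DAS2 (PAS_chr3_0834, chromosome 3, 1613196 to 1615319, plus strand, 1 exon, 2124 bp) stood at 31086, 26661 and 26402 CPM without nitrogen, against 27000.0, 30100 and 31102 CPM with nitrogen. These ranges were almost the same, and the 95% interval from -0.31 to 0.18 on the log2 scale puts the level without nitrogen at between 0.805 and 1.13 times that with nitrogen. The pair are closely similar genes of equal coding length, and how the authors' counting treated reads with several matches is not given in the sources used here, so their separate values are uncertain. With their counts summed, the log2 fold change was -0.14 (edgeR adjusted p = 0.670).

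DAK2 (PAS_chr3_0841, chromosome 3, 1626575 to 1628401, plus strand, 1 exon, 1827 bp) encodes the dihydroxyacetone kinase. Its levels were 2354, 1978 and 2036 CPM without nitrogen, against 2474, 2739 and 2526 CPM with nitrogen. The groups did not overlap, although replicate 1 of each lay close to the other. The mean was 2123 ± 202 CPM without nitrogen and 2580 ± 140.3 CPM with nitrogen (SD, n = 3 each). In log2 the difference was -0.28 ± 0.12 (SE), with a 95% interval from -0.52 to -0.04. It did not pass over all genes (edgeR adjusted p = 0.194), nor in any of 17 alternatives.

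**Figure D3:**
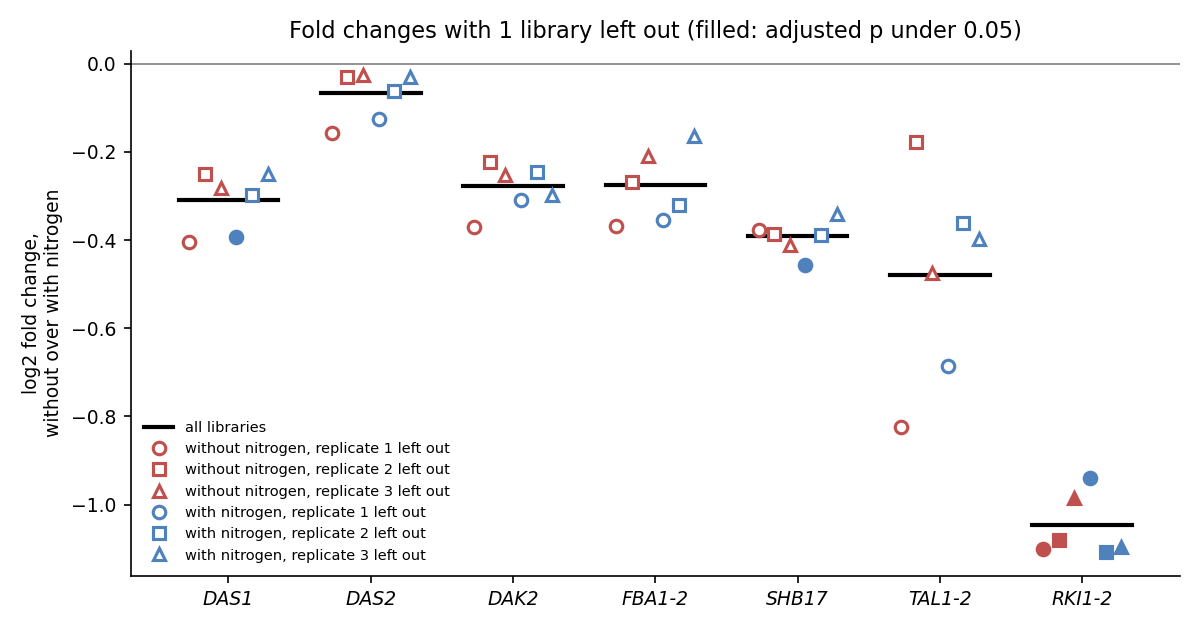
Log2 fold change (y axis, without nitrogen over with nitrogen) of each cycle gene with 1 library left out at a time; black lines give the value with all libraries, and filled symbols have an adjusted p under 0.05. RKI1-2 stays between -1.11 and -0.94, while TAL1-2 runs from -0.82 to -0.18.

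Per kilobase of coding length, the levels without nitrogen ran, from high to low, DAS2, DAS1, SHB17, DAK2, FBA1-2, RKI1-2 and TAL1-2. With nitrogen the order was the same but for RKI1-2, which stood above FBA1-2. RKI1-2 had 215 ± 28.3 CPM per kilobase without nitrogen and 454 ± 52.2 with nitrogen (SD, n = 3 each). FBA1-2 had 329 ± 43.1 CPM per kilobase without nitrogen and 408 ± 55.6 with nitrogen, so with nitrogen these neighbours in the order did not differ beyond their spread. DAS2 had 13206 ± 1239 CPM per kilobase without nitrogen and 13842 ± 1007 with nitrogen, and TAL1-2, the lowest, had 108 ± 35.4 without nitrogen and 150.3 ± 35.6 with nitrogen. Because 3' end reads give about 1 fragment per transcript whatever its length, dividing by length favours short genes. In CPM without that division, FBA1-2 was above RKI1-2 in every library. Fragments wholly in untranslated regions were not counted, so the counted part of a gene's fragments may differ between genes. Neither order therefore shows transcript abundance.

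The next comparison set the rearrangement genes beside the genes of dihydroxyacetone formation and phosphorylation, first as shares of each library's total count and then as a ratio of the summed counts within a library, which needs no scaling between libraries. FBA1-2, SHB17, TAL1-2 and RKI1-2 together took 0.209%, 0.212% and 0.211% of all counts without nitrogen, against 0.272%, 0.282% and 0.301% with nitrogen. The groups were apart. The 3 libraries without nitrogen nearly coincided, but this does not show tighter replicates, since counting error is wider. SHB17, which made up most of these counts, was counted 433, 611 and 202 times in replicates 1, 2 and 3 without nitrogen. DAS1, DAS2 and DAK2 together took 4.40%, 3.93% and 3.91% of all counts without nitrogen, against 4.26%, 4.58% and 4.73% with nitrogen, and here replicate 1 without nitrogen lay above replicate 1 with nitrogen.

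The mean share of the rearrangement genes was 0.211% ± 0.00158 without nitrogen and 0.285% ± 0.0148 with nitrogen (SD, n = 3 each; exact permutation p = 0.1, two-sided, the smallest that 3 against 3 can give). That of all 7 genes was 4.29% ± 0.275 without nitrogen and 4.80% ± 0.255 with nitrogen (exact permutation p = 0.2), and that of DAS1, DAS2 and DAK2 was 4.08% ± 0.277 without nitrogen and 4.52% ± 0.241 with nitrogen (exact permutation p = 0.2). Adjusted over these 3 shares, each p was 0.2. The SD of 0.00158 for the rearrangement genes without nitrogen is below counting error, so it does not measure the precision of that share.

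The log2 ratio of the summed rearrangement genes to the summed DAS1, DAS2 and DAK2 was -4.39, -4.21 and -4.21 without nitrogen, against -3.97, -4.02 and -3.97 with nitrogen. Every library without nitrogen was lower. The difference was -0.28 (exact permutation p = 0.1, two-sided; adjusted p = 0.16 over 8 ratios). SHB17 made up most of the rearrangement counts, and DAS2 made up most of the counts of DAS1, DAS2 and DAK2. This ratio is therefore mainly one of SHB17 to DAS2, which had a log2 fold change of -0.07 in CPM. It does not show that the rearrangement genes fell more than DAS1 or DAK2.

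Each gene was also set against the sum of the other 6 in the same library. The log2 ratio of RKI1-2 to the others was -8.30, -8.11 and -8.45 without nitrogen, against -7.04, -7.51 and -7.54 with nitrogen, a difference of -0.92 with no overlap. For SHB17 the difference in log2 ratio was -0.23 and for DAS1 it was -0.20, both without overlap. For DAS2 the sign was opposite, with a log2 ratio of 0.83, 0.85 and 0.78 without nitrogen, against 0.60, 0.55 and 0.55 with nitrogen, a difference of 0.25 without overlap. These 4 differences each had an exact permutation p = 0.1 and an adjusted p = 0.16 over 8 ratios. DAK2, FBA1-2 and TAL1-2 overlapped between the groups in this ratio (exact permutation p = 0.2 to 0.3). The ratios share genes, so they are not independent of each other. DAS2 made up most of the cycle genes' counts, so the ratios of the other single genes are mainly ratios to DAS2. In CPM, DAS2 itself had a log2 fold change of -0.07 (edgeR adjusted p = 0.876), so its higher ratio does not show a rise of DAS2. The opposite signs of DAS1 and DAS2 also rest on how reads were split between them, which is uncertain.

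Within the 7 genes' own counts, DAS2 made up 63.8% ± 0.571 without nitrogen and 59.7% ± 0.510 with nitrogen (SD, n = 3 each). DAS1 made up 26.4% ± 0.565 without nitrogen and 29.1% ± 0.845 with nitrogen. RKI1-2 made up 0.320% ± 0.0373 without nitrogen and 0.610% ± 0.123 with nitrogen.

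**Figure D4:**
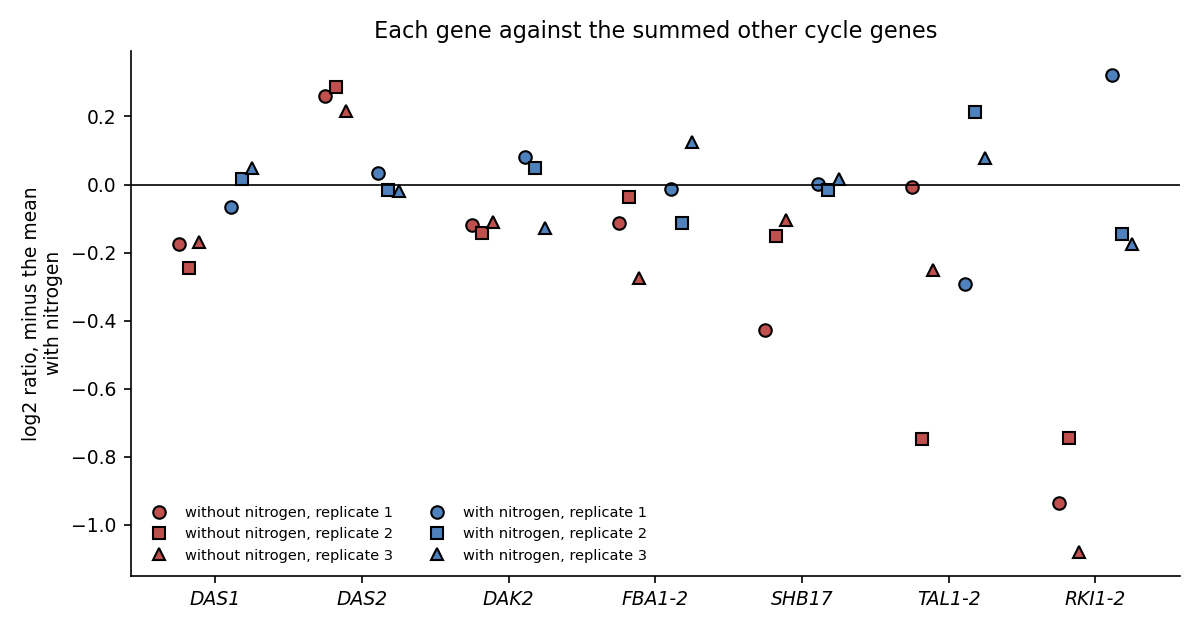
Log2 ratio of each cycle gene to the summed other 6 in each library, shown as the difference from that gene's mean with nitrogen (y axis), without nitrogen on the left and with nitrogen on the right of each pair. DAS2 lies higher without nitrogen, and DAS1, SHB17 and RKI1-2 lie lower, in all 3 libraries of each group.

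The remaining enzymes of methanol use oxidize methanol and formaldehyde. On a list of 6 of their genes (AOX1, AOX2, CTA1, FLD1, FGH1 and FDH1), 3 fell, none rose and 3 did not pass by the same test. Of all tested genes, 6.34% were called and 2.67% were called lower. The 6 had a median log2 fold change of -0.39 and a range from -0.60 to -0.07, against a median of -9.27e-05 over all tested genes. RKI1-2, at -1.05, lay below the whole range of the 6, and SHB17, at -0.39, lay within it. Whether the cycle genes differ from the oxidation genes was not tested.

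DAS1, DAS2 and DAK2 lie within 19818 bp of chromosome 3. DAS1 and DAS2 point away from each other with 2488 bp between their start codons, a stretch that holds 1 annotated gene with 3 to 13 counts per library. DAK2 begins 11255 bp after the end of DAS2. Of the 6 other annotated genes in this span, 4 were tested and none was called by edgeR's adjusted p, with log2 fold changes from -0.66 to 0.06. The gene directly after DAK2, 558 bp downstream on the same strand, had 136 ± 42.9 CPM without nitrogen and 259 ± 59.6 CPM with nitrogen (SD, n = 3 each), and fell by 0.92 on the log2 scale (edgeR adjusted p = 0.00126).

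**Figure D5:**
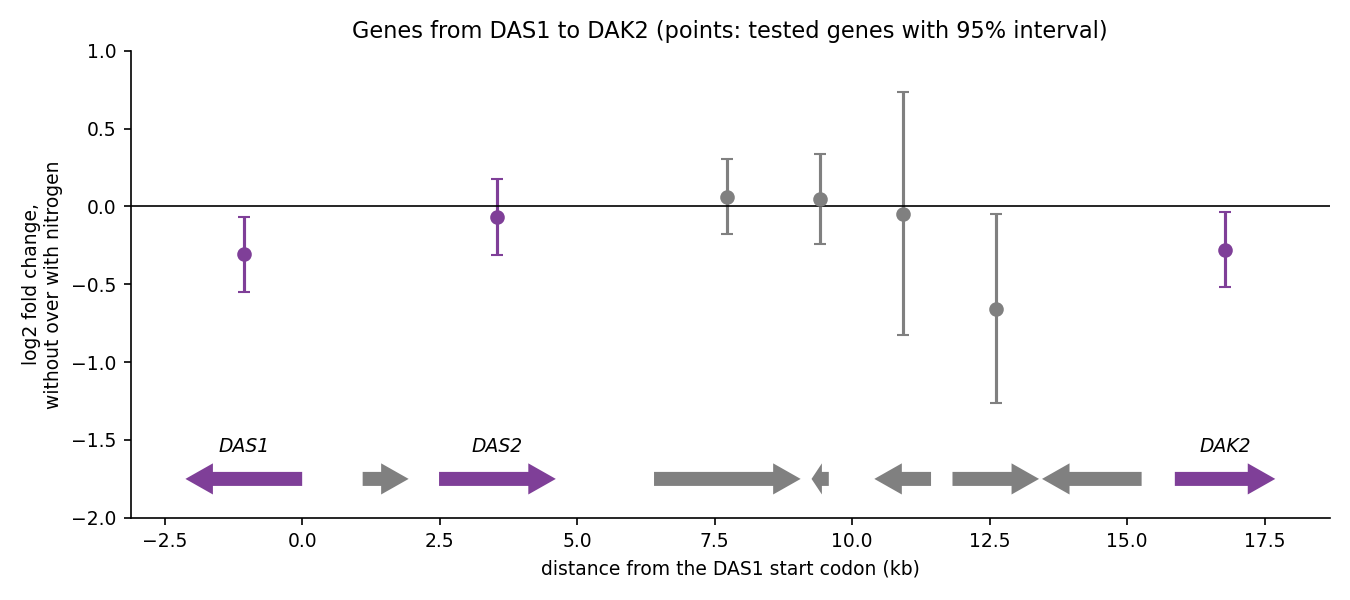
Genes from DAS1 to DAK2 on chromosome 3, drawn to scale as arrows in the direction of transcription, by distance from the DAS1 start codon in kb (x axis). Points are log2 fold changes without nitrogen over with nitrogen (y axis) with 95% intervals for tested genes, purple for cycle genes and grey for the others, and none of them was called.

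The 4 rearrangement genes lie apart from this cluster and from each other, except that SHB17 and TAL1-2 share chromosome 2. Their direct neighbours downstream matter for 3' end counts, because a fragment beyond a stop codon can fall on the next gene. RKI1-2 is followed after 125 bp by a gene on the same strand, at 245 ± 17.9 CPM without nitrogen and 309 ± 6.48 CPM with nitrogen (SD, n = 3 each). That gene differed by -0.32 ± 0.18 (SE) in log2 (edgeR adjusted p = 0.415). The gene upstream of RKI1-2, 317 bp away, is read in the opposite direction, so its 3' end points away from RKI1-2. That upstream gene had 339 ± 40.9 CPM without nitrogen and 484 ± 14.9 CPM with nitrogen. It fell by 0.50 on the log2 scale (edgeR adjusted p = 0.0396). In all 3 genes every library without nitrogen was under all those with nitrogen, as for 9.91% of all tested genes. The difference was largest for RKI1-2 of these 3, and whether their fold changes differ from each other was not tested.

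TAL1-2 is followed after 331 bp by a gene on the same strand with far more counts, at 2292 ± 87.1 CPM without nitrogen and 2562 ± 73.3 CPM with nitrogen (SD, n = 3 each). It differed by -0.16 ± 0.12 (SE) in log2 (edgeR adjusted p = 0.590). FBA1-2 and SHB17 each end near a gene on the opposite strand, 26 bp and 61 bp away. These neighbours had 22 to 45 counts and 0 to 4 counts per library. Whether fragments were assigned across these gene borders was not tested, and the strand setting of the counting is not given in the sources used here.

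Over the 6 libraries, the 2 genes outside the cycle whose log2 CPM followed the mean standardized profile of the 7 genes most closely were PAS_chr2-1_0783 (Pearson's r = 0.979) and PAS_chr2-1_0748 (r = 0.977), among 1706 genes with a mean of at least 100 CPM. All these values share libraries, depth and the group difference, and they were picked as the highest of many. The log2 fold change was -0.26 for PAS_chr2-1_0783 (edgeR adjusted p = 0.255) and -0.55 for PAS_chr2-1_0748 (edgeR adjusted p = 6.85e-04).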

How the data were processed

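A table deposited by the authors holds unnormalized read counts for every gene in the 6 libraries. QuantSeq forward libraries were prepared using 300 ng of RNA, per the labels' protocols. Per the submitters' processing notes the tools were Trimmomatic, HISAT2 and featureCounts (versions and settings not given in the sources used here). All 5040 locus tags and positions match the RefSeq annotation of assembly ASM2700v1 (strain GS115). All 5040 lengths are multiples of 3, so untranslated regions were not counted and fragments wholly in them are not in the counts.

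The group difference was fitted in edgeR 4.0.16 (R 4.3.3) with filterByExpr (minimum count 10), TMM scaling, and the quasi-likelihood F-test for group over all genes. The fit was checked on counts simulated from its own model, for the size and direction of fold changes and the recovery of changed genes. That check does not show the rate of false calls in the real data. The SE is the size of the fold change divided by the square root of F. Alternatives used DESeq2 1.42.0 and limma 3.58.1. Shares and ratios used exact permutation tests in scipy 1.17.1. The cycle genes and lists were chosen with earlier results of these data known. The genes to be named were the 7, the 6 oxidation genes and the 2 of most similar pattern; the neighbouring genes and the ratios of single genes were added after values had been seen. Comparison of each gene with its closest protein homolog was not run, since no protein sequences were used here.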

Additional observations from a re-analysis of the deposited data

How the results depend on the processing

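Of 119 values of the 7 genes under alternatives (17 each), 109 kept direction and side of the threshold. The call was lost in 7 (all SHB17) and gained in 3 (all DAS1), and none turned sign. The 17 of DAS1 and of DAS2 each include the same fit of their summed counts, which is a value of neither gene alone. The causes were not tested. The number of cycle genes called was 2, against 1 with the replicate block, 1 with libraries thinned to the lowest total, and 1 to 3 with a library left out. Over all genes 211 were called, against 119 with DESeq2, 129 with thinning and 129 to 183 with a library left out; without replicate 2 with nitrogen and without replicate 1 without nitrogen it was 132, and without replicate 2 without nitrogen 129. With the replicate block 168 were called, and SHB17 did not pass (log2 fold change -0.38, edgeR adjusted p = 0.119). As a check of pairing, the deviations of libraries sharing a replicate number had correlations of -0.067, -0.0321 and -0.0579, and for none of the 6 was its own number the best match, so the labels' numbers are taken only as names. With a library left out, the difference in the share of all counts taken by the 7 genes ran from -0.67 to -0.40 percentage points and that of the rearrangement ratio from -0.31 to -0.22. Without DAS2 the difference in share was -0.39 percentage points (exact permutation p = 0.1). Adding 0.5 to the count above and to the count below the line of each ratio left all 8 ratios in their direction. The low counts of TAL1-2 and RKI1-2 limit their precision. The ratios to protein homologs were not run.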
